A study of Rattus norvegicus with 6 samples.

Results

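Spp1, which encodes osteopontin, and 4 other genes of lipid-associated macrophages, Gpnmb, Lgals3, Cd68 and Cd9, were examined in rupture-prone intracranial aneurysm (IA) lesions of rats. They are 5 of the 22081 genes in the deposited table and were found by their symbols. The 5 genes were chosen by their values in these same libraries, lesion against circle of Willis, so that this contrast is described for them and carries no test. Bulk RNA was sequenced from 3 IA lesions and from the remaining circle of Willis, the arterial ring at the base of the brain, of the same 3 animals, which pairs every lesion with a control artery. A library is named by its tissue and its animal, so that lesion 2 is the lesion of animal 2.

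The rats of both groups were female Sprague-Dawley animals bought at 10 weeks of age. All of them had undergone bilateral ovariectomy and ligation of the left carotid, the right external carotid, the right pterygopalatine and the left renal artery, and all were fed chow with 0.12% of 3-aminopropionitrile, a blocker of the lysyl oxidase that cross-links elastin and collagen, and with 8% of sodium chloride. The control artery therefore came from an operated, hypertensive animal on the same diet, and there was no untreated rat among these libraries. By the paper's discussion, lesions of a rat model also form in almost all animals where the anterior cerebral and olfactory arteries divide, and never rupture there. Whether the remaining circle of Willis included that site is not stated. The lesions were unruptured swellings of an anterior or posterior communicating artery. By the labels and the RNA methods the samples date from day 63, although a sentence of the animal methods assigns another day to the RNA samples. Each library held 65823027 to 70705938 counts, and 16718 to 17470 genes had at least 1 count. The smooth muscle marker Acta2 was present in all 6 libraries, at 1741, 3511 and 1005 TPM (the authors' transcript measure, a level scaled by gene length and library) in lesions 1, 2 and 3 and at 2731, 1773 and 4548 TPM in the circle of Willis, and the endothelial marker Cldn5 had 138 to 372.5 TPM in lesions and 370.2 to 502.4 TPM in the circle of Willis.

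Lipid-associated macrophages are macrophages that have taken up lipid or cell debris and express genes for lipid handling, lysosomal digestion and matrix proteolysis. They are known from obese fat tissue, atherosclerotic plaques and demyelinated brain. Osteopontin is a secreted, phosphorylated glycoprotein that binds integrins and Cd44. Gpnmb is a transmembrane glycoprotein of lysosomes and the cell surface, Lgals3 is a galectin that binds galactose-containing glycans, Cd68 is a heavily glycosylated lysosomal membrane protein of macrophages and Cd9 is a tetraspanin, a small membrane protein that organizes other membrane proteins. None of the 5 is made by macrophages only. Osteopontin is also a product of bone cells and of smooth muscle, and Cd9 is abundant in myelin, platelets and vessel walls.

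Of these genes, 4 lay on the same side in every animal and Cd9 did not. Spp1, Gpnmb, Lgals3 and Cd68 were over 1.5-fold higher in the lesion of every animal, and the lowest lesion lay above the highest circle of Willis for each of them. Cd9 was higher in the lesions of animals 1 and 2 and lower in that of animal 3. All 5 genes passed the filter on low counts, as did 15367 genes in all. Of these 15367 genes, 2.75% were over 1.5-fold higher in all 3 animals, 5.51% were over 1.5-fold lower in all 3, and 10.3% had every lesion above every circle of Willis. Since the 5 genes were selected on this contrast, nothing is read from their count of 4 against those shares. In bulk tissue a larger number of cells of a type and more RNA per cell cannot be told apart.

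**Figure D1:**
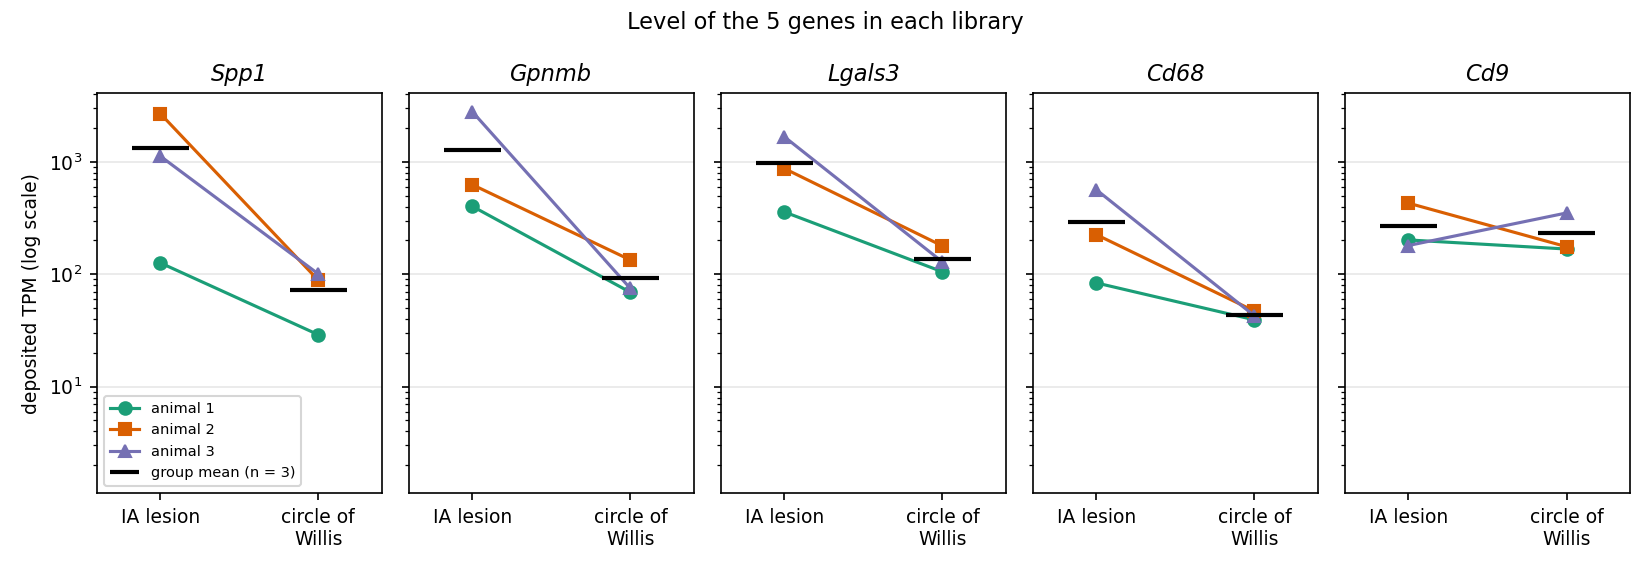
Deposited TPM (log scale) of the 5 genes in the IA lesion and the circle of Willis, with a line joining the libraries of an animal and a black bar at the mean of 3 libraries. Spp1, Gpnmb, Lgals3 and Cd68 lie higher in the lesion of each animal, while the lines of Cd9 cross, with 180.5 TPM in lesion 3 and 351.7 TPM in its circle of Willis.

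The 250 bases before the transcription start of 4 of the 5 genes were taken from the promoter table of RefSeq. Of these genes, 3 were higher in the lesion of every animal and Cd9 was not. The genes were chosen on that contrast, so the sequences are shown as a description only. They are given 5′ to 3′ on the strand of the gene with positions of the build GRCr8, which is not the build of the counts. Capitals mark matches to 5 short motifs on either strand, TCACATGA (the M-box of MITF and TFE factors), CACGTG (an E-box), TGANTCA (AP-1), GAGGAAG (PU.1) and ACCNCA (a loose form of RUNX). N stands for any base, so ACCNCA admits strings outside the RUNX core ACCRCA, where R is A or G.
Spp1 chr14:5619805-5620054 (minus strand): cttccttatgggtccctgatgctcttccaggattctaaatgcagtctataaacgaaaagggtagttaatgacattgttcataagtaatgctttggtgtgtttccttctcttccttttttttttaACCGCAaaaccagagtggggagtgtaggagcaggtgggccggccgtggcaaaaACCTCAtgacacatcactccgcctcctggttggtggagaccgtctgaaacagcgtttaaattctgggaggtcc
Gpnmb chr4:79340878-79341127 (plus strand): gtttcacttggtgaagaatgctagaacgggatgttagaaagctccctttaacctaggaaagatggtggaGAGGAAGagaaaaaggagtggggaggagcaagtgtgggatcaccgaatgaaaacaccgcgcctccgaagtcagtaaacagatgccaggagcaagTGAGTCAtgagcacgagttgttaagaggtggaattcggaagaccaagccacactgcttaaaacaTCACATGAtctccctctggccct
Cd68 chr10:54882442-54882691 (minus strand): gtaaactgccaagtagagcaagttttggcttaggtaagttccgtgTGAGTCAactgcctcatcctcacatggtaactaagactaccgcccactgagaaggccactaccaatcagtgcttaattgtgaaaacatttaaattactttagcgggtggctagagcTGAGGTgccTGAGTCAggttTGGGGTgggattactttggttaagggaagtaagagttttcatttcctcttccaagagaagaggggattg
Cd9 chr4:159975359-159975608 (minus strand): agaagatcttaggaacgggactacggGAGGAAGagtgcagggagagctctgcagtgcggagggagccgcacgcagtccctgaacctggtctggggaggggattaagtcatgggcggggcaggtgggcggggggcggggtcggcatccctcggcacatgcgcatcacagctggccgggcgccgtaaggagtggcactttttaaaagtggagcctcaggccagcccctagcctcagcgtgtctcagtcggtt
Gpnmb held the M-box, from 23 to 16 bases before its start, and 0.977% of 33469 rat promoter windows of this length hold that motif. Gpnmb also held 1 AP-1 motif, at 87 to 81 bases, and 1 PU.1 motif, at 181 to 175 bases before the start. Cd68 held 2 AP-1 motifs, at 205 to 199 and at 80 to 74 bases. It also held 2 matches to ACCNCA in reverse orientation, TGAGGT and TGGGGT, both outside the RUNX core. Spp1 held 2 matches to ACCNCA, of which ACCGCA, at 126 to 121 bases before the start, has the RUNX core. The other, ACCTCA at 73 to 68 bases, lies outside that core. Cd9 held 1 PU.1 motif at 224 to 218 bases. AP-1 is found in 6.34% of all windows, PU.1 in 10.2%, the loose string ACCNCA in 41.0% and the E-box, which is in none of the 4, in 5.59%. No 2 of the matches shown share a base. The motifs were picked after the sequences had been read, and a match is a string of letters, with no measurement of binding behind it.

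Spp1 (ENSRNOG00000043451) lies on the minus strand of chromosome 14 of Rnor6, from 6673686 to 6679901. It had 9223, 172729 and 80639 counts in lesions 1, 2 and 3, against 2012, 5753 and 7041 counts in the circle of Willis. As levels per length these were 126.5, 2701 and 1129 TPM in lesions and 28.98, 88.44 and 100.7 TPM in the circle of Willis. Lesion 2 was the highest and lesion 1 came close to the control arteries of animals 2 and 3. Spp1 averaged 1319 ± 1298 TPM in lesions and 72.7 ± 38.4 TPM in the circle of Willis (SD, n = 3 each). The ratio within an animal, taken from CPM (counts scaled to a common library size) after TMM normalization, was 4.75, 29.3 and 11.2, and the mean log2 ratio was 3.54 (standard error 0.76, n = 3 animals), rank 29 of the 15367 genes. The lesions spread more than the control arteries did, as the highest lesion had 21.4 times the TPM of the lowest, and the highest circle of Willis 3.48 times that of the lowest. By level, Spp1 stood at rank 870, 41 and 138 among all genes in lesions 1, 2 and 3 and at rank 3877, 1417 and 1157 in the circle of Willis.

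Gpnmb (ENSRNOG00000008816) lies on the plus strand of chromosome 4, from 78694447 to 78715683. It had 44611, 60983 and 304127 counts in lesions 1, 2 and 3, against 7287, 13240 and 7943 counts in the circle of Willis, which correspond to 403.1, 628.2 and 2806 TPM in lesions and 69.14, 134.1 and 74.83 TPM in the circle of Willis. Here lesion 3 stood out, and its Gpnmb level was at rank 50 of all genes of that library. The mean was 1279 ± 1327 TPM in lesions and 92.7 ± 36.0 TPM in the circle of Willis (SD, n = 3 each). The ratio within an animal was 6.34, 4.49 and 37.6, with a mean log2 ratio of 3.35 (standard error 0.95, n = 3 animals). Its lowest lesion still had 3.42 times the normalized CPM of its highest circle of Willis, a wider gap than the 1.37 of Spp1. In animal 1 Gpnmb had the highest ratio of the 5 genes.

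Spp1 and Gpnmb therefore led in different lesions. The ratio of Spp1 to Gpnmb in TPM was 0.314, 4.3 and 0.403 in lesions 1, 2 and 3, against 0.419, 0.66 and 1.35 in the control arteries. Lesion 2 was the library in which osteopontin transcripts outnumbered those of Gpnmb most, and in lesions 1 and 3 Gpnmb was the more abundant. Within an animal this ratio was lower in the lesion for animals 1 and 3 and higher in the lesion for animal 2.

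Lgals3 (ENSRNOG00000010645) lies on the plus strand of chromosome 15, from 24141651 to 24165537. Its counts were 18715, 40002 and 85584 in lesions 1, 2 and 3, against 5229, 8319 and 6442 in the circle of Willis. In TPM these were 359.1, 874.9 and 1677 in lesions and 105.3, 178.9 and 128.9 TPM in the circle of Willis. Lesion 3 was again the highest, and no lesion overlapped the control arteries. The mean was 970.2 ± 663.9 TPM in lesions and 137.7 ± 37.6 TPM in the circle of Willis (SD, n = 3 each). The ratio within an animal was 3.71, 4.69 and 13.0, with a mean log2 ratio of 2.61 and a standard error of 0.56 over 3 animals, the smallest standard error among the 5 genes.

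Cd68 (ENSRNOG00000037563) lies on the minus strand of chromosome 10, from 56268720 to 56270640. It had 4991, 11777 and 32987 counts in lesions 1, 2 and 3, against 2229, 2499 and 2437 counts in the circle of Willis. Its level was 83.8, 225.4 and 565.5 TPM in lesions and 39.3, 47.02 and 42.66 TPM in the circle of Willis. The control arteries differed by only 1.2 times from the lowest to the highest, the narrowest of the 5 genes, while the lesions differed by 6.75 times. Cd68 averaged 291.6 ± 247.6 TPM in lesions and 43.0 ± 3.87 TPM in the circle of Willis (SD, n = 3 each). The ratio within an animal was 2.32, 4.59 and 13.3, and the mean log2 ratio was 2.38 with a standard error of 0.73 over 3 animals. Lgals3 kept a similar proportion to Cd68 in all 6 libraries, with 4.29, 3.88 and 2.96 times its TPM in lesions and 2.68, 3.8 and 3.02 times in the circle of Willis.

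Cd9 (ENSRNOG00000019556) lies on the minus strand of chromosome 4, from 157977162 to 158010166. It had 11855, 22105 and 10357 counts in lesions 1, 2 and 3, against 9370, 9210 and 19765 counts in the circle of Willis. Its level was 202.3, 430 and 180.5 TPM in lesions and 167.9, 176.1 and 351.7 TPM in the circle of Willis, so that the groups overlapped and the 2 highest libraries were lesion 2 and the control artery of animal 3. The mean was 270.9 ± 138.2 TPM in lesions and 231.9 ± 103.8 TPM in the circle of Willis (SD, n = 3 each). The ratio within an animal was 1.31, 2.34 and 0.514, and the mean log2 ratio of 0.22 was smaller than its standard error of 0.64 (n = 3 animals). The mean was -0.29 when animal 2 was left out and 0.81 when animal 3 was, so the direction of Cd9 is not settled by these libraries. Of all 15367 genes, 28.8% had a higher mean ratio.

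The 2 libraries with most Cd9 were highest in different markers of other cells that express it. Lesion 2 had the highest myelin and platelet sums, and the control artery of animal 3 the highest smooth muscle sum. The control artery of animal 1 had the lowest Cd9, at 167.9 TPM, although its smooth muscle sum exceeded that of lesion 2. The summed TPM of 10 oligodendrocyte and myelin genes was 651, 4596 and 758.7 in lesions 1, 2 and 3 and 429.8 to 682.9 in the circle of Willis, none of the 10 being at 0. The summed TPM of 10 smooth muscle genes was 6828, 8855 and 3162 in lesions 1, 2 and 3, against 9135, 5187 and 15100 in the circle of Willis, and each of the 10 was over 1.5-fold lower in the lesion of animal 3. The platelet list had 24.96, 248.7 and 121.7 TPM in lesions and 26.9 to 34.42 TPM in the circle of Willis, of which Pf4 made up 231.9 TPM in lesion 2, while Ppbp and Gp6 were at 0 in lesion 3. The part of these cells in the Cd9 values was not tested.

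**Figure D2:**
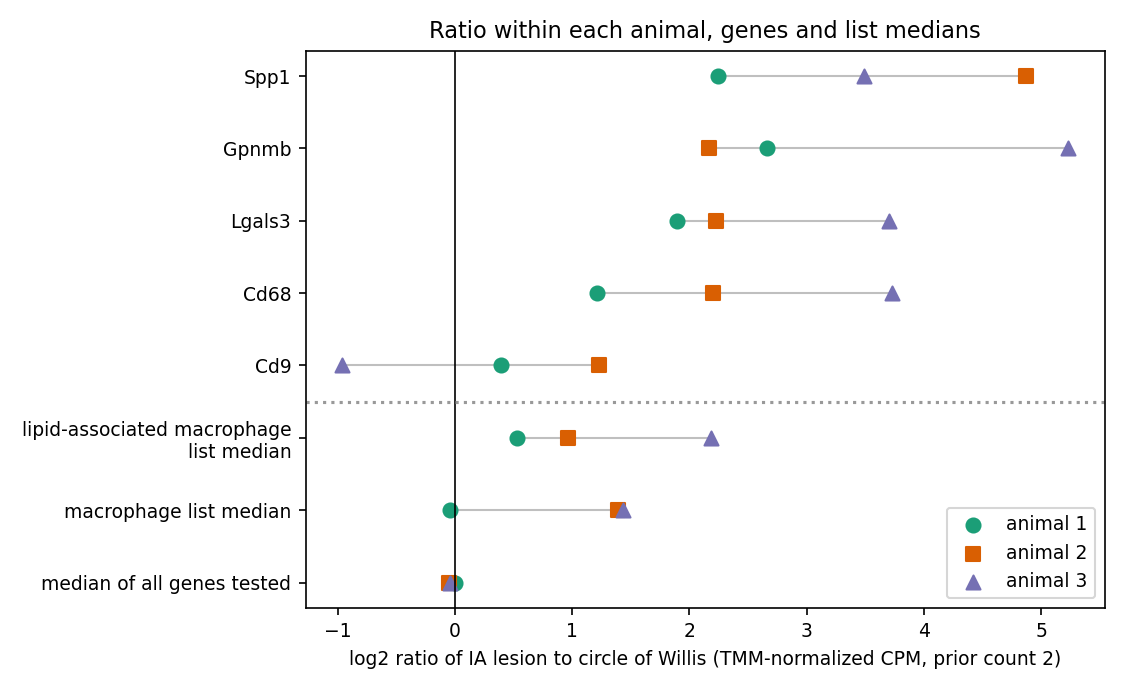
Log2 ratio of IA lesion to circle of Willis within each animal for the 5 genes (above the dotted line) and for the medians of 30 other lipid-associated macrophage genes, 18 macrophage genes and all 15367 genes tested (below it). In animal 1 the macrophage median lies at -0.04, and Spp1, Gpnmb, Lgals3 and Cd68, which were chosen on this contrast, lie between 1.21 and 2.66.

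General macrophage markers were set beside the 5 genes, and in animal 1 their median lay near 0. Of 18 macrophage genes in the table (none at 0 in any library, Itgam not analysed here), 1 was over 1.5-fold higher in animal 1, 13 were in animal 2 and 17 were in animal 3. These are 5.56%, 72.2% and 94.4% of the list, beside 8.51%, 18.6% and 17.8% of all genes tested. The list medians were -0.04, 1.39 and 1.44 for animals 1, 2 and 3, and those of all genes lay between -0.05 and 0.00. The summed TPM was 3606, 6327 and 12330 in lesions and 3100, 1785 and 3187 TPM in the circle of Willis, and Lyz2, the macrophage lysozyme, was the most abundant of the list. Relative to the list median, the log2 ratio of Spp1 was higher by 2.28, 3.48 and 2.05, that of Gpnmb by 2.70, 0.78 and 3.79, that of Lgals3 by 1.93, 0.84 and 2.27 and that of Cd68 by 1.25, 0.81 and 2.29. Those 4 genes thus exceeded the macrophage median in every animal, Gpnmb least in animal 2. Since the genes were chosen on this same contrast, nothing is read from that excess. For Cd9 the same difference was 0.43, -0.16 and -2.40.

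Over all 15367 genes, edgeR's quasi-likelihood test, blocked on the animal, found 0% higher in lesions and 0% lower once p was adjusted (threshold 0.05), the lowest adjusted p being 0.0976. Without adjustment 8.63% were higher and 12% were lower at p under 0.05. DESeq2, blocked in the same way, had 5.38% higher and 6.37% lower after adjustment, and limma-voom had 0 genes. Counts at the unadjusted threshold are given for the lists that follow, beside those of DESeq2. Where a gene is said to be higher or lower at this threshold, it did not pass after adjustment over all genes in edgeR.

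Of the 18 macrophage genes, 8 passed the unadjusted threshold as higher and 1 as lower, and DESeq2 called 8 and 1 after adjustment. That count rests on animals 2 and 3, since leaving out animal 1 gave 14, leaving out animal 2 gave 0 and leaving out animal 3 gave 1. Lyz2 had 2388, 4090 and 8680 TPM in lesions 1, 2 and 3 and 1722, 867.1 and 1898 TPM in the circle of Willis. The complement genes C1qa and C1qc, which tissue macrophages express, had log2 ratios of -0.15, 1.58 and 1.66 and of -0.17, 0.94 and 1.29. Cd14, a co-receptor for lipopolysaccharide, had a mean log2 ratio of 1.13 and Cybb, the oxidase of the respiratory burst, had 1.25. Cd163, the haemoglobin scavenger receptor of perivascular macrophages, was the gene that passed as lower. Cd163 had 1.86, 3.38 and 4.03 TPM in lesions and 6.13, 9.04 and 6.27 TPM in the circle of Willis. Its mean log2 ratio was -1.23 (standard error 0.30, edgeR adjusted p = 0.181). Mrc1, the mannose receptor, had -0.50, -0.48 and 0.77.

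The other lipid-associated macrophage genes had medians above 0 in each animal. All 30 passed the filter, 17 passed the unadjusted threshold as higher and 0 as lower, and DESeq2 called 19 and 0 after adjustment. The first count became 11 when animal 2 was left out, 18 when animal 1 was and 14 when animal 3 was. Of the 30 genes, 14 were over 1.5-fold higher in animal 1, 19 in animal 2 and 28 in animal 3, which are 46.7%, 63.3% and 93.3% of the list, and 13 were so in all 3 animals. The share was above that of the general macrophage list in animal 1 and below it in animals 2 and 3, and the difference between the lists was not tested. The medians were 0.53, 0.96 and 2.18. The list was written with results of these libraries known, so its direction is no independent evidence.

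The largest mean ratio of the list was that of Mmp12, the macrophage elastase, with 11.97, 44.68 and 70.23 TPM in lesions 1, 2 and 3 and 0.416, 0.77 and 1.02 TPM in the circle of Willis. Its log2 ratios were 4.89, 5.75 and 6.08, and its adjusted p of 0.0976 from edgeR was the lowest that any gene reached. Pla2g7, a lipoprotein-associated phospholipase, had 22.2, 80.69 and 85.46 TPM in lesions and 2.95, 9.55 and 6.39 TPM in the circle of Willis. These genes were over 8-fold higher in every animal, as was Fabp5, a fatty acid binding protein, whose ratios were 9.86, 9.23 and 20.7. Fabp4, another one, had 26.58, 69.51 and 204.8 TPM in lesions and 1.57, 2.31 and 1.4 TPM in the circle of Willis, and Itgax, the integrin chain CD11c, had log2 ratios of 0.86, 2.53 and 2.49. Syngr1, a vesicle protein, had -0.81, -0.44 and 0.68. The most abundant gene of the list, Apoe, which carries lipid out of macrophages and is also made by astrocytes, had 6402, 8348 and 20690 TPM in lesions and 6348, 8349 and 4649 TPM in the circle of Willis, so that it stood over 1.5-fold above the control artery in animal 3 only. The cathepsin Ctsb had log2 ratios of 0.64, 0.71 and 2.07, and the galectin Lgals1 had 0.11, 0.44 and 0.36.

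Trem2, the lipid receptor on which the programme depends in mice, was named after its values were seen. It had 53.63, 161.7 and 359.4 TPM in lesions 1, 2 and 3 and 37.39, 30.98 and 53.61 TPM in the circle of Willis. Lesion 1 barely exceeded the control artery of animal 3, and the order of the 3 lesions was that of Lgals3 and Cd68. Its signalling partner Tyrobp had log2 ratios of 0.48, 1.92 and 2.33. Hmox1, which degrades haem, and the lysosomal protease Ctsd, both also named after the fact, had mean log2 ratios of 2.99 (standard error 0.82) and 1.80 (standard error 0.65).

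**Figure D3:**
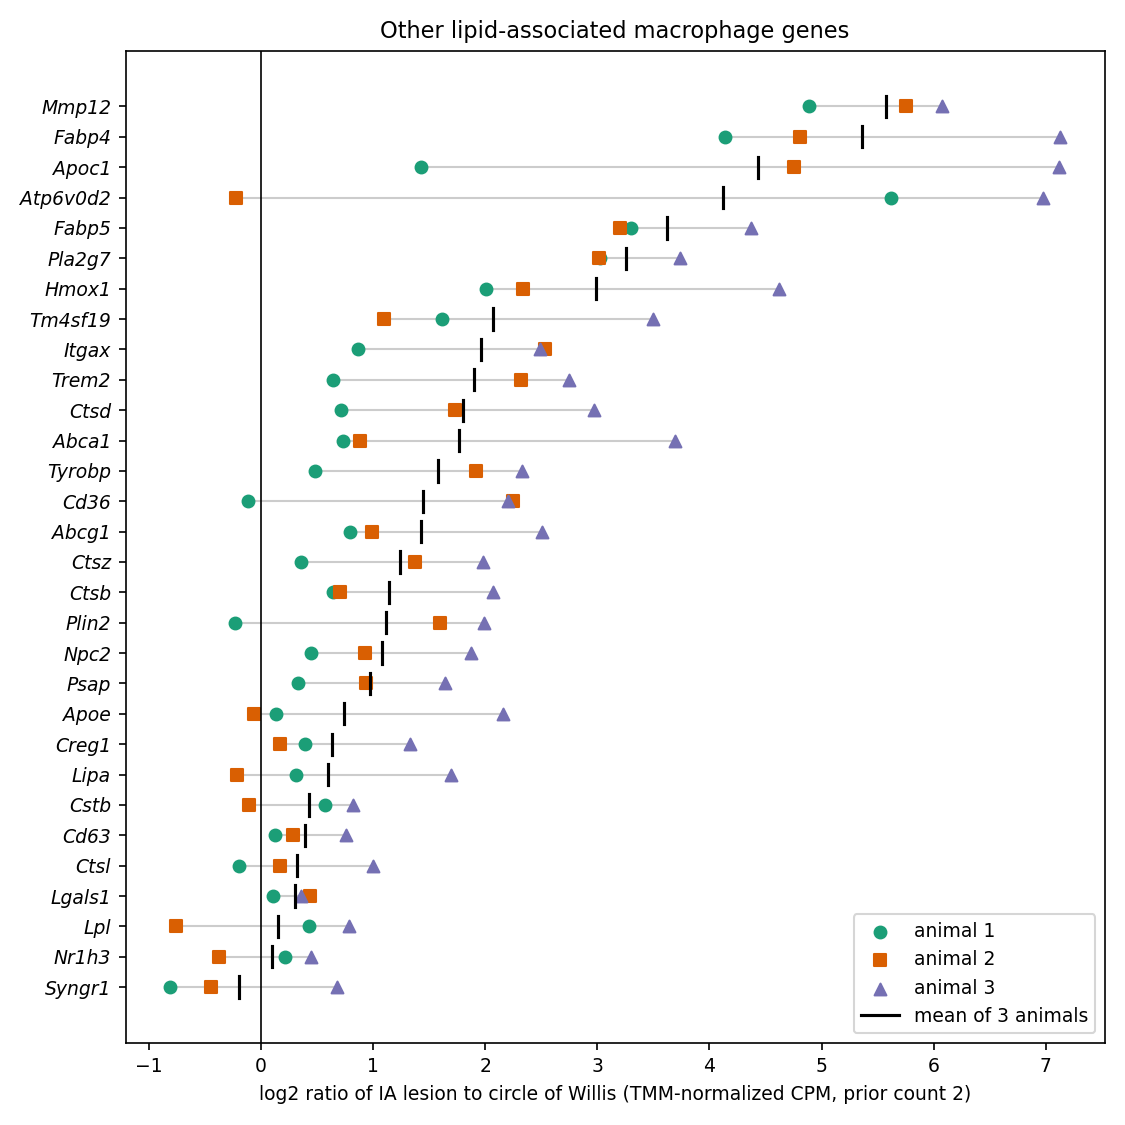
Log2 ratio of IA lesion to circle of Willis within each animal for the 30 other lipid-associated macrophage genes, sorted by the mean of 3 animals (black tick). Mmp12 is at the top with 4.89, 5.75 and 6.08, and animal 3 (triangle) is the highest for most genes.

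The receptors of osteopontin did not move as a group. Of 9 receptor genes tested, 1 passed the unadjusted threshold as higher and 0 as lower, and DESeq2 called 1 and 0, with list medians of -0.15, 0.83 and -0.27. The gene was Cd44, the hyaluronan receptor, which had 10.12, 58.61 and 53.68 TPM in lesions 1, 2 and 3 and 8.93, 9.86 and 11.43 TPM in the circle of Willis. Cd44 was thus high in lesions 2 and 3, and lesion 1 lay within the range of the control arteries. The integrin chain Itgav had log2 ratios of -0.94, 0.47 and -0.05, its partner Itgb3 -0.62, 1.87 and -0.71 and Itgb1, the most abundant receptor chain at 274.7 TPM over all libraries, 0.14, 0.53 and -0.27. Itga5, the fibronectin receptor chain, was high in lesion 2, with 137.7 TPM there, 23.43 and 55.2 TPM in lesions 1 and 3 and 27.66 to 39.75 TPM in the circle of Willis. Itga9, which binds osteopontin cleaved by thrombin, had -0.79, -0.04 and -1.75.

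Among 7 genes for enzymes that cleave or modify osteopontin, 3 passed the unadjusted threshold as higher and 0 as lower, and DESeq2 called 3 higher after adjustment. They were Mmp12, Mmp9 and Acp5. Mmp9, a gelatinase, had 0.609, 16.14 and 6.71 TPM in lesions 1, 2 and 3 and 0.361 to 0.545 TPM in the circle of Willis, with most in lesion 2, as for Spp1. Acp5, the tartrate-resistant phosphatase of osteoclasts and macrophages, which dephosphorylates osteopontin, had 17.19, 101.4 and 85.43 TPM in lesions and 9.85, 15.06 and 10.45 TPM in the circle of Willis. Fam20c, the kinase that phosphorylates osteopontin, had log2 ratios of 0.06, 0.34 and 1.06, and Tgm2, a transglutaminase that cross-links it, had -0.22, -0.21 and -1.39. Thrombin (F2) was near the detection limit, with 5, 3 and 2 counts in lesions and 10, 6 and 7 counts in the circle of Willis, and did not pass the filter.

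Osteopontin belongs to a family of acidic matrix glycoproteins of bone and teeth whose genes form a cluster. Of its 3 other members tested, 2 passed the unadjusted threshold as higher and 0 as lower, and DESeq2 called 2 higher. Ibsp, bone sialoprotein, had 13.46, 40.87 and 55.78 TPM in lesions 1, 2 and 3 and 5.4, 3.62 and 11 TPM in the circle of Willis, and Mepe, a phosphoglycoprotein of osteocytes, had 1.73, 9.27 and 2.84 TPM in lesions and 0.1, 0.696 and 0.547 TPM in the circle of Willis. The lesions and control arteries of both genes did not overlap. Dmp1 had log2 ratios of 0.08, 1.58 and -1.08, and Dspp had 0 counts in all 6 libraries. The 12 chondrocyte and bone markers summed to 97.49 to 152.5 TPM in lesions and 94.71 to 130.5 TPM in the circle of Willis, with medians of 0.32, 1.78 and 1.27. Of these markers, 4 passed the unadjusted threshold as higher and 2 as lower, so the sums join opposite directions. Comp, among the higher ones, had log2 ratios of 2.80, 3.74 and 4.91. Alpl, among the lower ones, had 83.56, 19.11 and 39.33 TPM in lesions and 107.8, 78.46 and 88.16 TPM in the circle of Willis. The part of these 12 markers in the Spp1 values was not tested.

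The transcription factors and partners of Gpnmb had smaller mean log2 ratios than Gpnmb itself. Since Gpnmb was chosen on this contrast, nothing is read from that. Of 8 genes, 3 passed the unadjusted threshold as higher and 0 as lower, and DESeq2 called 2 higher. The 3 were Mitf, Tfeb and Cd44, and the 2 were Mitf and Cd44. In animal 2 the log2 ratio of Cd44, at 2.51, lay above that of Gpnmb, at 2.17. Mitf, a regulator of Gpnmb in pigment cells and osteoclasts of mice, had 5.3, 4.01 and 5.84 TPM in lesions 1, 2 and 3 and 3.49, 3.03 and 2.92 TPM in the circle of Willis, a small difference without overlap. Tfeb, a regulator of lysosomal genes, had log2 ratios of 0.30, 0.45 and 0.81, and Tfec, a family member of macrophages, had -0.28, 1.28 and 2.21. Tfe3 had -0.61, 0.09 and 0.14. Pmel, the closest relative of Gpnmb and a pigment granule protein, had 3.47, 2.0 and 2.1 TPM in lesions and 3.61, 1.71 and 1.62 TPM in the circle of Willis. Adam10, which sheds the outer part of Gpnmb, had -0.70, -0.07 and -0.33.

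The families of Lgals3 and Cd68 had no gene past the unadjusted threshold in edgeR. Of 8 galectins and galectin-related genes tested, 0 passed the unadjusted threshold in either direction in edgeR, and DESeq2 called none after adjustment, with medians of 0.21, 0.04 and -0.18. Lgals1 was the most abundant, at 1347, 2137 and 1494 TPM in lesions 1, 2 and 3 and at 1359, 1513 and 1170 TPM in the circle of Willis, and Lgals9 had log2 ratios of 0.26, -0.61 and -0.33. Lgals3bp, a secreted ligand of Lgals3, had 195.1, 260.5 and 337.5 TPM in lesions and 188.9, 224.8 and 173.8 TPM in the circle of Willis. In the family of lysosomal membrane proteins to which Cd68 belongs, 0 of 3 genes passed the unadjusted threshold in either direction. Lamp1 had mean log2 ratio 0.52 and Lamp2 0.10, and Lamp5, a protein of neurons and dendritic cells, was called lower by DESeq2 with 13, 1 and 2 counts in lesions and 10, 237 and 471 counts in the circle of Willis.

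Of the 25 tetraspanins and partners of Cd9, 6 passed the unadjusted threshold as higher and 1 as lower, and DESeq2 called 4 and 1. Cd53, a tetraspanin of leukocytes, had 34.55, 61.15 and 142.2 TPM in lesions 1, 2 and 3 and 24.03, 15.9 and 27.16 TPM in the circle of Willis. Cd37, also of leukocytes, had log2 ratios of 0.09, 1.74 and 1.62, Tspan18 had 0.00, 1.69 and 1.61 and Cd82 had 0.20, 0.75 and 0.64. These 4 genes had their higher ratios in animals 2 and 3, unlike Cd9. Cd151, a partner of laminin-binding integrins, had -1.07, -0.14 and -1.49, and Tspan8 had 0.08, -2.07 and -1.68. The 3 tetraspanins with the highest mean TPM were Cd81, with log2 ratios of 0.26, -0.17 and -0.12, Cd63, a protein of late endosomes, with 0.13, 0.29 and 0.76, and Tspan3, with 0.06, -0.17 and -0.44.

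**Figure D4:**
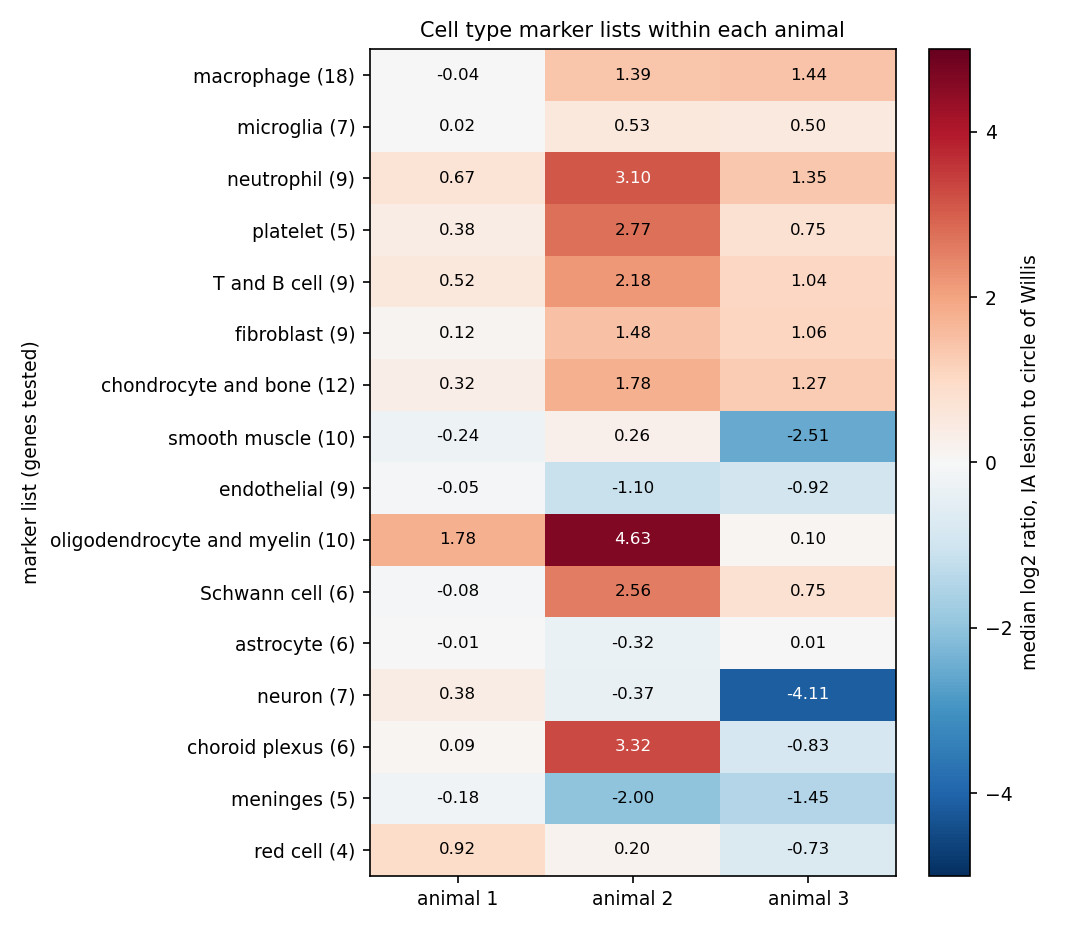
Median log2 ratio of IA lesion to circle of Willis within each animal for 16 lists of cell type markers, with the number of genes tested in parentheses (red, higher in the lesion, and blue, lower). In animal 1 most medians lie near 0 and the myelin list at 1.78, while animal 2 is marked by the myelin list at 4.63 and animal 3 by the smooth muscle list at -2.51 and the neuron list at -4.11.

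Markers of other cells moved with the lesions as well. The neutrophil list, in which 2 of 9 genes passed the unadjusted threshold as higher and 0 as lower, had medians of 0.67, 3.10 and 1.35 and a summed TPM of 29.3, 418.4 and 91.68 in lesions 1, 2 and 3 and of 19.96 to 42.19 in the circle of Willis. This order of lesions, 2 before 3 before 1, is that of Spp1, but it is not the order of every neutrophil gene. S100a8 and S100a9 made up most of the sum in lesion 2, at 139.6 and 226.3 TPM. Mpo had 25, 4 and 1 counts in lesions 1, 2 and 3 and Ngp had 107, 17 and 8, while Mmp8 was highest in lesion 3. The fibroblast list summed to 1811, 8807 and 6014 TPM in lesions and 1952 to 2749 TPM in the circle of Willis. Its sum had lesion 2 before 3 before 1 as well, and Col1a1, Col3a1 and Postn made up most of it in lesion 2, at 3605, 2173 and 1730 TPM. Of 9 fibroblast genes tested, 4 passed the unadjusted threshold as higher and 1 as lower, and DESeq2 called 3 and 0. The lower gene, Dcn, had log2 ratios of -0.40, -0.37 and -0.78. Pdgfra and Fbln1 had mean log2 ratios of -0.45 and -0.60. The meningeal list, mainly Ptgds, was at 26830 and 24540 TPM in lesions 2 and 3, against 124300 and 85880 TPM in their control arteries, and was 107900 TPM in lesion 1 and 132900 TPM in its control artery. Lesion 2 also held 14000 TPM of choroid plexus markers, of which Ttr made up 13030 TPM, where no other library exceeded 436.4 TPM. Of 6 choroid plexus genes tested, 2 passed the unadjusted threshold as higher and 1 as lower, and DESeq2 called 2 and 1. The latter, Kcnj13, had log2 ratios of -0.85, -1.40 and -2.23. No gene of the neutrophil, fibroblast, meningeal, choroid plexus or bone lists was at 0 in a library. The part of these differences in tissue composition in the values of the 5 genes was not tested.

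The genes next to each of the 5 were examined on Rnor6, where no other gene overlaps any of them. Beside Spp1, Pkd2, at a distance of 28429 bases, had log2 ratios of -0.10, -0.24 and -0.60, whereas the cluster members Mepe, at 102111 bases, and Ibsp, at 121303 bases on the other side, were higher in each animal. Malsu1, 19596 bases from Gpnmb, had 0.04, -0.10 and -0.33. Dlgap5, a gene of the mitotic spindle that ends 1949 bases from Lgals3 on the opposite strand, had 0.33, 1.49 and 1.80. Eif4a1 and Mpdu1, 617 and 1507 bases from Cd68, had 0.12, 0.54 and 0.66 and 0.26, -0.31 and -0.06. The endothelial gene Vwf, 78339 bases from Cd9, had -0.18, -1.69 and -1.67. Besides Mepe, Ibsp and Dlgap5, no neighbour tested had a log2 ratio above 1 in any animal.

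**Figure D5:**
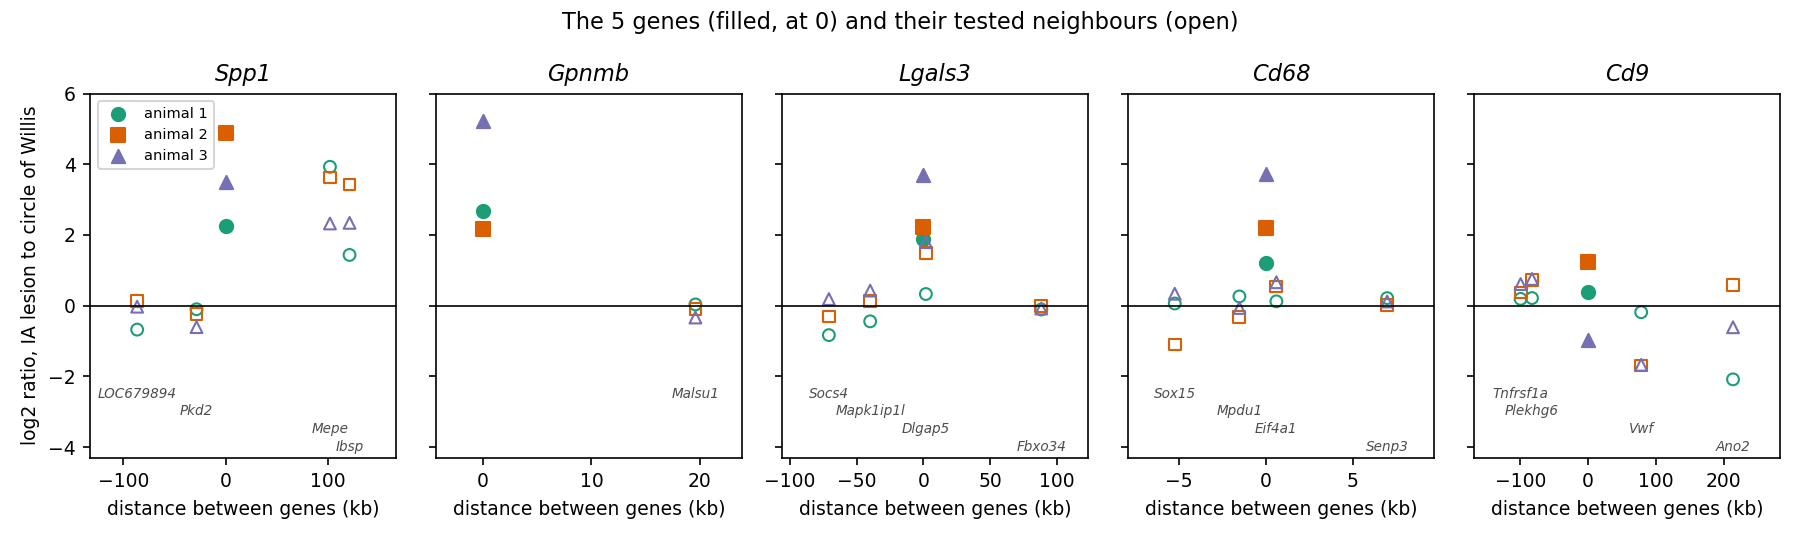
Log2 ratio of IA lesion to circle of Willis within each animal for the 5 genes (filled, at distance 0) and the neighbouring genes that passed the filter (open), by distance between the genes in kilobases. Mepe and Ibsp are the neighbours that stand with Spp1, at 1.44 to 3.93.

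By Pearson correlation of log2 normalized CPM over the 6 libraries, which share 3 animals and both tissues, the 5 genes were most like different genes. For Spp1 these were Cldn15 (r = 0.997), Pqlc3, Rhoc, P4ha3, a prolyl hydroxylase of collagen (r = 0.993), and Cdkn2b. P4ha3 was the one with a comparable range, at 1.64, 53.62 and 18.48 TPM in lesions 1, 2 and 3 and 0.54, 1.55 and 2.42 TPM in the circle of Willis. For Gpnmb they were Cib1 (r = 0.998), Tmem138, Atp6v0b, a subunit of the proton pump of lysosomes (r = 0.992), Ptprv and Zdhhc16. For Lgals3 they were Gins4 (r = 0.998), Asnsd1, Tor1a, Mgst2 and Fth1, the heavy chain of the iron store ferritin, which had 6680, 11380 and 14860 TPM in lesions and 4281, 5404 and 4034 TPM in the circle of Willis. For Cd68 they were Fam96a (r = 0.997), Pole, Tmem120a, Il2rg and again Tor1a. Cd9 was followed less closely, by Hid1 (r = 0.974), Adam11, Fbxl2, Cdh13, an adhesion protein of vessels, and Ptgs2, the inducible cyclooxygenase, which had 2.99, 10.29 and 3.18 TPM in lesions and 2.87, 3.64 and 6.87 TPM in the circle of Willis. With 6 libraries many genes reach such values, and they are given as a description.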

How the data were processed

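RNA from 3 lesions and 3 control arteries was made into stranded mRNA libraries and sequenced in pairs, and mapping to Rnor6 was done by the authors in CLC genomics workbench (version 11). CASAVA is also named in the submitters' processing notes. The authors deposited raw counts per gene and TPM, which they scaled by gene length and library. No source used here says whether the counting used the strand. Their RPKM and scaled CPM columns were not used, nor were the columns of their own comparisons, which hold fold changes and p-values.

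Libraries were assigned by their labels and paired by animal. The deviations of both libraries of an animal from the group means correlated across genes at 0.389, 0.3 and 0.0688 in animals 1 to 3. The counts were tested in R (version 4.3.3) with edgeR (version 4.0.16, glmQLFit and glmQLFTest, TMM, filterByExpr, the animal as a block, Benjamini-Hochberg), after the steps had been tested on simulated data. DESeq2 (version 1.42.0) and limma-voom (limma version 3.58.1) were alternatives, as were other scalings, filters and fold thresholds and leaving out each animal. Ratios within an animal used TMM-normalized CPM, and log2 ratios a prior count of 2, which understates changes of genes with few counts. The p-values are for the difference between lesion and circle of Willis within animals. Each method set it against a variation over 3 animals that was estimated with sharing across genes.

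The 5 genes and the 24 lists (240 genes, 232 in the table) were chosen with earlier results of these data known, and the 5 genes were left out of the lists. Named were all genes of lists of up to 12, and of longer lists the 5 with the smallest edgeR p, up to 2 in the opposite direction and the 3 with the highest mean TPM, besides neighbours and the 5 genes most like each of the 5. Others are said to be chosen after their values were seen. A gene that this rule would name is not reported here. Promoter sequences come from RefSeq (GRCr8).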

Additional observations from a re-analysis of the deposited data

How the results depend on the processing

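The mean log2 ratios of Spp1, Gpnmb, Lgals3 and Cd68 stayed above 0 under each alternative run (size factors, total counts, TPM, a smaller prior count, each animal left out). With an animal left out this sign was fixed beforehand. These genes were chosen on this contrast, and each of their log2 ratios within an animal lay above 0. Over the animals left out the means spanned 2.87 to 4.21 for Spp1, 2.42 to 3.95 for Gpnmb, 2.06 to 3.00 for Lgals3 and 1.71 to 3.00 for Cd68, while Cd9 spanned -0.29 (without animal 2) to 0.81 (without animal 3). DESeq2 called 826 genes higher and 979 lower, against 0 and 0 in edgeR, in limma-voom, with other size factors, without the filter and without any 1 animal. Without the replicate block edgeR called 0 higher and 1 lower. The block changed no call of a list count by over 1.5 times, with 20 lipid-associated macrophage and 10 macrophage genes higher without it, against 17 and 8. At 2-fold in place of 1.5-fold, the numbers passing in every animal were 190 (higher) and 299 (lower), against 423 and 847. Leaving out an animal gave 596 to 1803 higher and 1068 to 1853 lower, where fewer animals have to pass. The count of lipid-associated macrophage genes spanned 11 to 18 and that of macrophage genes 0 to 14 over the same exclusions. The cause of these shifts was not tested, and with 3 animals per tissue the standard errors rest on 3 ratios.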

Other observations

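Some genes of the lists, chosen after their values were seen, differed widely between the 3 lesions. Atp6v0d2, a subunit of the proton pump of osteoclasts and macrophages, had 188, 12 and 898 counts in lesions 1, 2 and 3, against 2, 14 and 5 counts in the circle of Willis. It was thus high in lesions 1 and 3, where Gpnmb exceeded Spp1, and at the level of its control artery in lesion 2. Mmp7, a metalloproteinase known to cleave osteopontin, had 0, 13 and 560 counts in lesions and 4, 3 and 5 counts in the circle of Willis, and did not pass the filter on low counts. Apoc1, an apolipoprotein of macrophages, had 170, 3738 and 18544 counts in lesions and 64, 133 and 129 counts in the circle of Willis, with the order of lesions seen for Lgals3 and Cd68. Each of these is a value of single libraries.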
